A study of Mus musculus with 7 samples.

Results

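Of the 14732 genes listed for the mouse outflow tract (OFT) at embryonic day 11.5 (E11.5), 35 genes of cholesterol synthesis, sterol sensing and lipid transport were examined. The genes were taken by symbol from a fixed list, and all 35 were listed. They comprised 19 enzymes of cholesterol synthesis, 5 genes grouped as SREBP regulators and 11 genes of lipoprotein uptake and lipid transport. The regulators were the genes of the sterol-responsive transcription factors SREBP and of proteins that control them. The OFT is the muscular tube that joins the embryonic heart to the great arteries. RNA was sequenced from pooled whole OFTs of 2 genotypes, with 3 control pools labelled wild type (replicates 3, 4 and 5) and 4 Gata6STOP/+ pools (replicates 1, 3, 4 and 5). Gata6STOP/+ embryos carry a premature stop codon, made by CRISPR-Cas9 editing, in 1 copy of Gata6, which encodes a zinc finger transcription factor of the heart. The allele is germline and not limited to a cell type, and the line descends from a selected founder backcrossed to C57BL/6 mice, so it is 1 line. The sources name no treatment of either genotype and no other allele in these embryos. The labels held 1 Gata6STOP/+ pool more than the series' design text gives.

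Cells make cholesterol from acetyl-CoA in a long chain of reactions. The first enzymes build mevalonate and then farnesyl diphosphate, which also feeds other lipids and the anchoring of proteins in membranes, and the later ones join farnesyl units into squalene and shape it into sterol. When sterols in the endoplasmic reticulum are low, SCAP escorts SREBP to the Golgi, where it is cut and released to activate the genes of synthesis and uptake, and INSIG proteins hold the complex back when sterols are plentiful. Cholesterol is a component of the membranes of dividing cells and is attached covalently to Hedgehog ligands, which signal in the tissue that forms the OFT. Apolipoprotein E carries lipid between cells and binds receptors that take it up.

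Depth was 17783655 to 34467710 reads on listed genes per pool, and each of the 35 genes had between 113 and 12628 reads in a pool. Values are CPM, the reads of a gene scaled to a common library size. Gata6 served as the check of the labels, with 315, 257 and 286 CPM in control replicates 3, 4 and 5 and 268, 203, 219 and 217 CPM in Gata6STOP/+ replicates 1, 3, 4 and 5. The Gata6 means were 286 ± 28.9 CPM (SD, n = 3) and 227 ± 28.7 CPM (n = 4), and the groups overlapped, since Gata6STOP/+ replicate 1 lay above control replicate 4. The limma log2 fold change of Gata6 was -0.34 ± 0.099 (SE; adjusted p = 0.389). The study's own edgeR test reported Gata6 as decreased, among its genes with an adjusted p under 0.05. The muscle genes Tnnt2 and Acta2, and Postn of the cushion mesenchyme, were at 1164 to 1841, 1449 to 2068 and 424 to 827 CPM, so the muscle and mesenchyme of the labelled tissue were present in every pool. Some pools stood apart in other cell markers: Gata6STOP/+ replicate 1 had the lowest value of 8 of 8 cardiomyocyte markers, Gata6STOP/+ replicate 3 had the highest and replicate 5 the lowest value of 9 of 10 macrophage markers, and control replicate 4 had Nppa, an atrial peptide gene, at 173.8 CPM where the other pools had 3.26 to 32.1 CPM. Liver markers varied as well: the 4 listed ones summed to 1.68 to 13.9 CPM in control and 2.97 to 36.7 CPM in Gata6STOP/+ pools. All 4 were highest in Gata6STOP/+ replicate 4. Pools also differed in the sexes they held, since 4 Y-linked genes summed to 39.9 to 93.4 CPM in control and 70.4 to 173.8 CPM in Gata6STOP/+ pools.

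None of the 35 genes passed the test at an adjusted p of 0.05, and none of all 14732 genes did (0% called) by limma, against 1187 genes (8.06%, of which 3.88% lower and 4.17% higher) at an unadjusted p under 0.05. Fdps and Apoe were the 2 of the 35 genes with an unadjusted p under 0.05, and they were also the 2 genes whose control and Gata6STOP/+ pools did not overlap, both lower in Gata6STOP/+ OFTs. That is 5.71% of the 35 genes, beside 8.47% of all genes whose groups did not overlap, of which 4.16% were lower and 4.31% higher. The other 33 genes overlapped between genotypes. Of the 35 differences, 26 were smaller than the SD within groups. The share over all genes was not computed, so this count does not set the 35 genes apart. The 35 genes had a median log2 fold change of -0.023 (16 higher, 19 lower), beside -0.00073 over all genes.

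**Figure D1:**
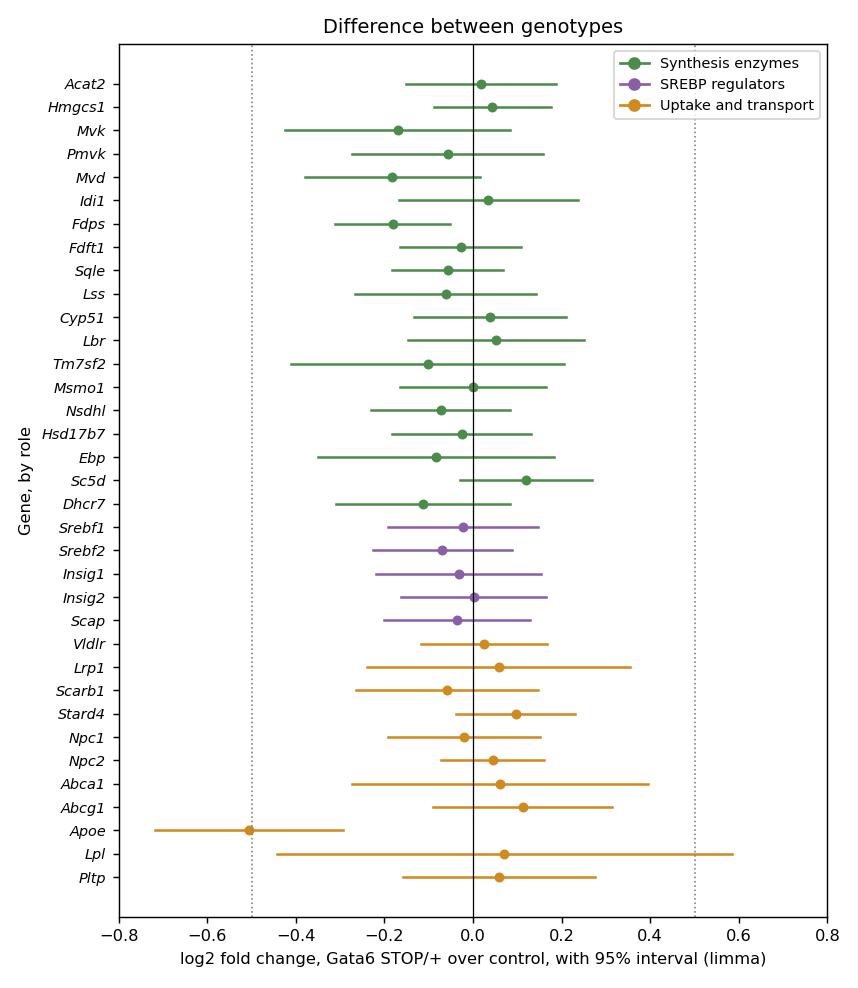
Log2 fold change of Gata6STOP/+ over control pools (x axis, points) with its 95% interval from limma (bars), 1 row per gene, coloured by role, with dotted lines at 0.5 in either direction. The intervals of 33 of the 35 genes lie within the dotted lines, and those of Apoe and Lpl reach past them.

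The 95% interval of the log2 fold change lay within 0.5 of no change for 33 of the 35 genes (94.3%), as it did for 77.5% of all genes and for 91.8% of the 11627 whose mean reached 5 CPM. The exceptions were Apoe, whose interval ran from -0.72 to -0.29, and Lpl, from -0.44 to 0.59. A bulk sample cannot tell fewer cells of a type from less RNA per cell.

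Levels of different genes were compared as CPM per kilobase of exon, with the exons of all annotated transcripts of a gene merged. This length can exceed that of the transcript in use and then lowers the value, so the order is approximate. Lss, with 10787 merged exon bases, had a mean of 24.8 CPM, and Nsdhl, with 2853, had 24.5 CPM. Apoe was highest at 71.6 CPM per kilobase, followed by Hmgcs1 at 36.9, Srebf2 at 30.0, Npc2 at 28.4 and Cyp51 at 23.3. Tm7sf2 (1.73), Abcg1 (2.28) and Lss (2.29 CPM per kilobase) were lowest, which left a 41.4-fold range between the ends. Of the 35 genes, 17 were at 10 CPM per kilobase or above. Tm7sf2 and Lbr both encode a sterol C14-reductase, and Lbr, which also builds the nuclear envelope, was at 16.9 CPM per kilobase against 1.73 for Tm7sf2.

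**Figure D2:**
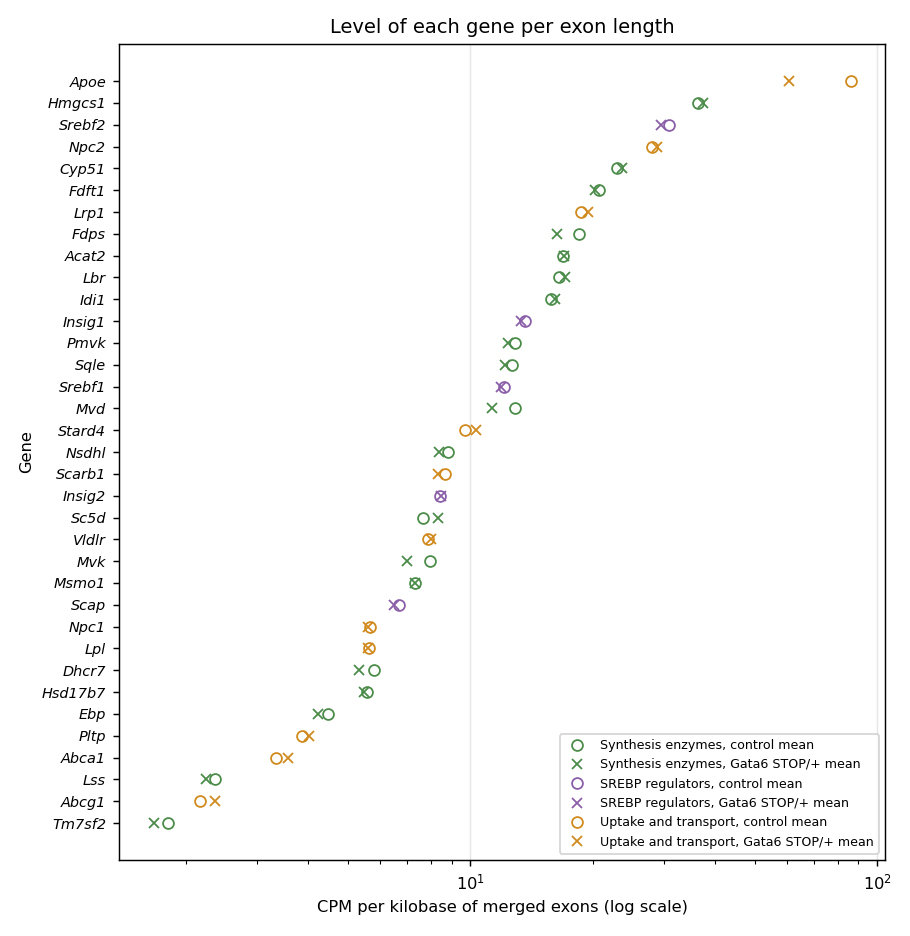
Mean level of each gene in control (circles) and Gata6STOP/+ pools (crosses), in CPM per kilobase of merged exons on a log axis, ordered from lowest to highest and coloured by role. The 2 symbols nearly coincide for most genes, and the widest gap is that of Apoe, at the top of the order.

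The 19 synthesis enzymes were examined first. Of these, 12 were lower and 7 higher in Gata6STOP/+ OFTs, with a median log2 fold change of -0.057, and fold changes ranged from -0.18 to 0.12. The Y-linked covariate added the mean log2 level of the Y-linked genes to the fit. With this covariate, 10 enzymes were lower and 9 higher, with a median of -0.0018. The median was -0.022 without control replicate 4, where 10 were lower and 9 higher, and -0.031 to -0.029 without control replicate 3 or Gata6STOP/+ replicate 1 or 5. Fdps alone had groups that did not overlap. Summed over the 19 genes, synthesis transcripts were at 962 ± 42.1 CPM (SD, n = 3) in control and 950 ± 11.6 CPM (n = 4) in Gata6STOP/+ pools, and the range of the control pools (935 to 1010 CPM) held every Gata6STOP/+ pool (937 to 962 CPM).

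Of the mevalonate arm, Hmgcs1 makes HMG-CoA (chr13:119690379-119708260, plus strand, GRCm38). Hmgcs1 measured 160.8, 180.6 and 158.9 CPM in the control pools (replicates 3, 4 and 5), beside 175.6, 171.9, 169.8 and 169.3 CPM in the Gata6STOP/+ pools (replicates 1, 3, 4 and 5). The Gata6STOP/+ values of Hmgcs1 lay between the control values. The Hmgcs1 means were 167 ± 12.0 CPM (n = 3) and 172 ± 2.89 CPM (n = 4), with a log2 fold change of 0.044 ± 0.060 (SE; limma adjusted p = 0.891).

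Fdps makes farnesyl diphosphate, the branch point between sterols and protein prenylation (chr3:89093588-89101959, minus strand). Fdps measured 74.8, 80.6 and 78.2 CPM in the control pools (replicates 3, 4 and 5), beside 67.4, 70.9, 70.6 and 65.5 CPM in the Gata6STOP/+ pools (replicates 1, 3, 4 and 5). All 4 Gata6STOP/+ pools were below the lowest control pool. The Fdps means were 77.8 ± 2.93 CPM (n = 3) and 68.6 ± 2.61 CPM (n = 4), and the log2 fold change of -0.18 ± 0.059 (SE) did not pass the test (limma adjusted p = 0.438). The exact permutation test over pools gave p = 0.0571 (two-sided), the smallest that 3 against 4 pools can give. Reads of Fdps are uncertain, since 25.0% of the 60-base stretches of its transcripts also occur in other annotated genes and 1124 exon bases overlap Gm43738 on the same strand. With the Y-linked covariate, the Fdps log2 fold change was -0.13.

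The mevalonate arm also holds Acat2, which joins acetyl-CoA units, the kinases Mvk and Pmvk, the decarboxylase Mvd and the isomerase Idi1. Mvd was at 21.8 to 25.8 CPM in control and 19.7 to 23.5 CPM in Gata6STOP/+ pools, and its log2 fold change of -0.18 ± 0.089 (SE) had an adjusted p of 0.652 (limma). Mvk was at 17.3 to 25.4 and 17.8 to 19.5 CPM, so the control pools spanned the Gata6STOP/+ pools. Pmvk was at 19.2 to 24.1 and 19.9 to 23.3 CPM. Acat2 (39.3 to 47.9 and 41.0 to 44.5 CPM) and Idi1 (48.7 to 61.0 and 50.5 to 61.4 CPM) were near their control means in Gata6STOP/+ pools, with log2 fold changes of 0.017 and 0.035. Acat2 shares 37.0% of its 60-base stretches with Acat3, and Idi1 shares 17.3% of its own with other annotated genes, so both values are uncertain.

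Of the squalene-to-sterol arm, Sqle makes the epoxide of squalene, a slow step of the pathway (chr15:59315077-59331192, plus strand). Sqle measured 67.9, 73.7 and 69.2 CPM in the control pools (replicates 3, 4 and 5), beside 69.6, 65.9, 67.2 and 67.2 CPM in the Gata6STOP/+ pools (replicates 1, 3, 4 and 5). The groups overlapped through Gata6STOP/+ replicate 1. The Sqle means were 70.3 ± 3.03 CPM (n = 3) and 67.5 ± 1.54 CPM (n = 4), with a log2 fold change of -0.057 ± 0.057 (SE; limma adjusted p = 0.837).

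The remaining enzymes of this arm overlapped between genotypes. Fdft1, which joins farnesyl units into squalene, was at 82.2 to 90.3 CPM in control and 81.3 to 90.8 CPM in Gata6STOP/+ pools. Lss, which closes the sterol rings, was at 21.6 to 27.9 and 23.5 to 24.7 CPM. Cyp51, which removes the 14-methyl group of lanosterol, was at 93.9 to 105.5 and 95.1 to 115.1 CPM. The reductases Lbr (67.0 to 85.2 and 74.9 to 86.8 CPM) and Tm7sf2 (6.3 to 8.8 and 6.8 to 8.5 CPM) act on the same bond. Of these transcripts, 18.3% of the exon bases of Fdft1 lie opposite Ctsb and 12.1% of those of Tm7sf2 are shared with Vps51 on the same strand, so both values are uncertain. Msmo1, Nsdhl and Hsd17b7 strip the 4-methyl groups, and Msmo1 had a log2 fold change of 0.00019, the smallest in size of the 35. Nsdhl was at 24.6 to 26.3 and 22.7 to 24.8 CPM, and Hsd17b7 at 26.9 to 30.4 and 27.2 to 29.2 CPM. Ebp, the isomerase of the sterol ring, was at 9.16 to 10.97 and 8.21 to 10.8 CPM. Nsdhl and Ebp are X-linked, and Xist, the RNA of the inactive X chromosome, was at 362 to 662 CPM in control and 1.30 to 539 CPM in Gata6STOP/+ pools. The log2 fold changes of Nsdhl and Ebp were -0.073 and -0.083, and with the Y-linked covariate they were -0.065 and 0.066.

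Sc5d and Dhcr7 act at the end of the route to cholesterol, and loss of Dhcr7 causes Smith-Lemli-Opitz syndrome. Sc5d was at 35.8, 40.1 and 36.0 CPM in control and 40.2, 40.3, 42.6 and 39.1 CPM in Gata6STOP/+ pools, and its log2 fold change of 0.12 was the highest of the 35 genes (limma adjusted p = 0.703). Dhcr7 was at 28.8 to 37.7 CPM in control and 30.2 to 31.7 CPM in Gata6STOP/+ pools, a log2 fold change of -0.11. Neither gene passed the test, and the groups overlapped for both.

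Pools of 1 genotype also differed among themselves. Of the 19 synthesis genes, 8 were highest in control replicate 4 and 9 were lowest in control replicate 5. Their mean log2 level relative to all pools was 0.10 in control replicate 4 and -0.053 in control replicate 5, and from -0.042 to 0.0063 in the Gata6STOP/+ pools.

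**Figure D3:**
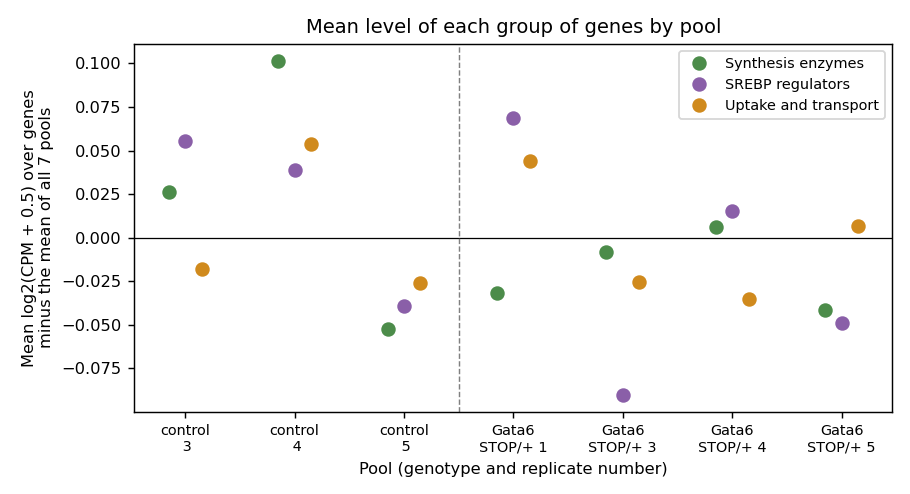
Mean log2(CPM + 0.5) of the synthesis (19 genes), regulator (5) and transport groups (11) in each pool, minus the mean of all 7 pools (y axis), with pools of the 2 genotypes on either side of the dashed line. Control replicates 4 and 5 hold the highest and lowest synthesis levels, and Gata6STOP/+ replicates 1 and 3 hold the highest and lowest regulator levels.

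The SREBP regulators are the switch that sets these enzymes. Of the 5 genes, 4 were lower and 1 higher in Gata6STOP/+ OFTs, with a median log2 fold change of -0.033, and none had groups that did not overlap. The median was -0.0091 without control replicate 3, -0.012 without Gata6STOP/+ replicate 3 and -0.015 without Gata6STOP/+ replicate 5. It was -0.077 without control replicate 5 and -0.069 without Gata6STOP/+ replicate 1 and with the replicate number as a block, with 5 of 5 lower in each, and -0.11 with the Y-linked covariate. SREBP is controlled by cutting of the protein, which RNA does not show.

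Srebf2 encodes SREBP2, the main activator of cholesterol genes (chr15:82147181-82205379, plus strand). Srebf2 measured 231.5, 223.0 and 209.5 CPM in the control pools (replicates 3, 4 and 5), beside 212.6, 189.3, 227.3 and 215.8 CPM in the Gata6STOP/+ pools (replicates 1, 3, 4 and 5). Gata6STOP/+ replicate 3 was lowest, and the other pools were interleaved. The Srebf2 means were 221 ± 11.1 CPM (n = 3) and 211 ± 15.9 CPM (n = 4), with a log2 fold change of -0.069 ± 0.071 (SE; limma adjusted p = 0.839).

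Srebf1 encodes SREBP1, whose targets lean towards fatty acid synthesis (chr11:60199089-60222581, minus strand). Srebf1 measured 73.8, 67.5 and 63.1 CPM in the control pools (replicates 3, 4 and 5), beside 72.1, 60.4, 68.4 and 67.3 CPM in the Gata6STOP/+ pools (replicates 1, 3, 4 and 5). The Gata6STOP/+ values of Srebf1 were interleaved with the control values. The Srebf1 means were 68.1 ± 5.40 CPM (n = 3) and 67.0 ± 4.88 CPM (n = 4), with a log2 fold change of -0.023 ± 0.077 (SE; limma adjusted p = 0.960).

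Insig1, itself a target of SREBP and a common readout of its activity, retains the SCAP complex (chr5:28071363-28078662, plus strand). Insig1 measured 39.3, 43.7 and 43.3 CPM in the control pools (replicates 3, 4 and 5), beside 45.4, 38.4, 44.0 and 37.2 CPM in the Gata6STOP/+ pools (replicates 1, 3, 4 and 5). Gata6STOP/+ pools lay both above and below the control pools. The Insig1 means were 42.1 ± 2.47 CPM (n = 3) and 41.3 ± 4.03 CPM (n = 4), with a log2 fold change of -0.033 ± 0.085 (SE; limma adjusted p = 0.946). Insig2, its relative, was at 28.7 to 30.4 and 26.8 to 31.2 CPM. Scap, the escort, was at 45.6 to 53.9 and 46.0 to 51.8 CPM.

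**Figure D4:**
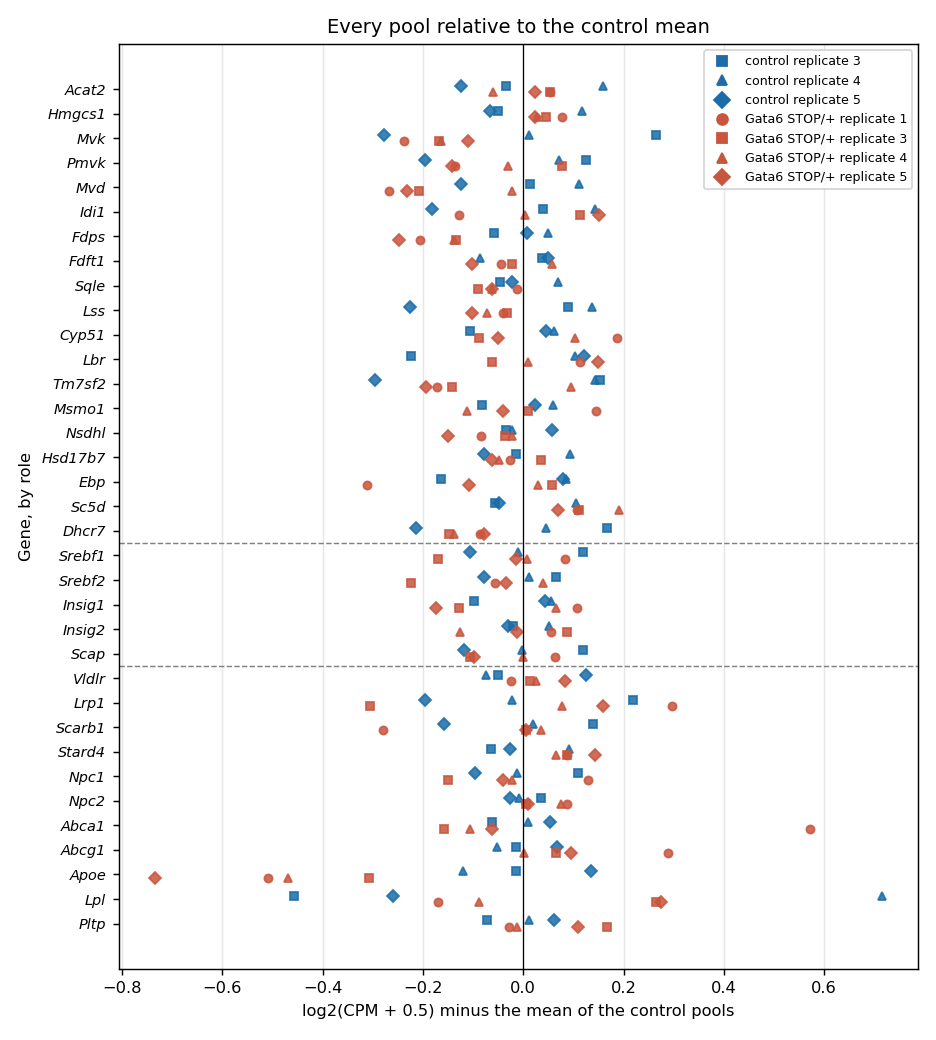
Log2(CPM + 0.5) of each pool minus the mean of the control pools (x axis) for each of the 35 genes (rows, with dashed lines between synthesis, regulators and transport), with control pools in blue, Gata6STOP/+ pools in red and a symbol for each replicate number. The 4 red symbols of Apoe and of Fdps lie to the left of all blue ones, Abca1 has 1 red symbol far to the right and Lpl has 1 blue symbol far to the right.

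Among the 11 genes of uptake and transport, 8 were higher and 3 lower in Gata6STOP/+ OFTs, with a median log2 fold change of 0.057. The split was 6 higher and 5 lower with the Y-linked covariate, with a median of 0.00019, and with a pool left out the median ran from 0.023 (without Gata6STOP/+ replicate 5) to 0.051. The median was 0.028 to 0.030 without control replicate 3 or 5 or Gata6STOP/+ replicate 1 or 3. Apoe alone had groups that did not overlap.

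Apoe had the smallest p of the 35 genes (chr7:19696109-19699188, minus strand). Apoe measured 181.6, 168.8 and 201.4 CPM in the control pools (replicates 3, 4 and 5), beside 128.8, 148.2, 132.3 and 110.1 CPM in the Gata6STOP/+ pools (replicates 1, 3, 4 and 5). All 4 Gata6STOP/+ pools were below the lowest control pool. The Apoe means were 184 ± 16.4 CPM (n = 3) and 130 ± 15.6 CPM (n = 4), so Gata6STOP/+ OFTs held 70.6% of the control level. The Apoe log2 fold change was -0.51 ± 0.096 (SE) and did not pass the limma test (adjusted p = 0.186), although it ranked 20 of 14732 by p. The exact permutation test over pools gave p = 0.0571 (two-sided), the smallest that this design can give. Apoe passed in count tests on the recovered reads, with adjusted p = 0.00122 by the edgeR likelihood ratio test and 0.000516 by DESeq2, where 0.713% and 0.597% of all genes were called. With the replicate number as a block, the likelihood ratio test called Apoe among 0.801% of all genes (adjusted p = 0.00928) and the quasi-likelihood test, which called 0.0882%, did not. The edgeR quasi-likelihood test without a block gave an adjusted p of 0.198. The study had reported cholesterol homeostasis, with Apoe, as a depleted gene set, selected on a nominal p of gene set enrichment. Beside that set it also cited its heatmap of genes with an adjusted p under 0.05 by edgeR. Both results came from these same samples, so neither is independent evidence of the direction of Apoe.

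**Figure D5:**
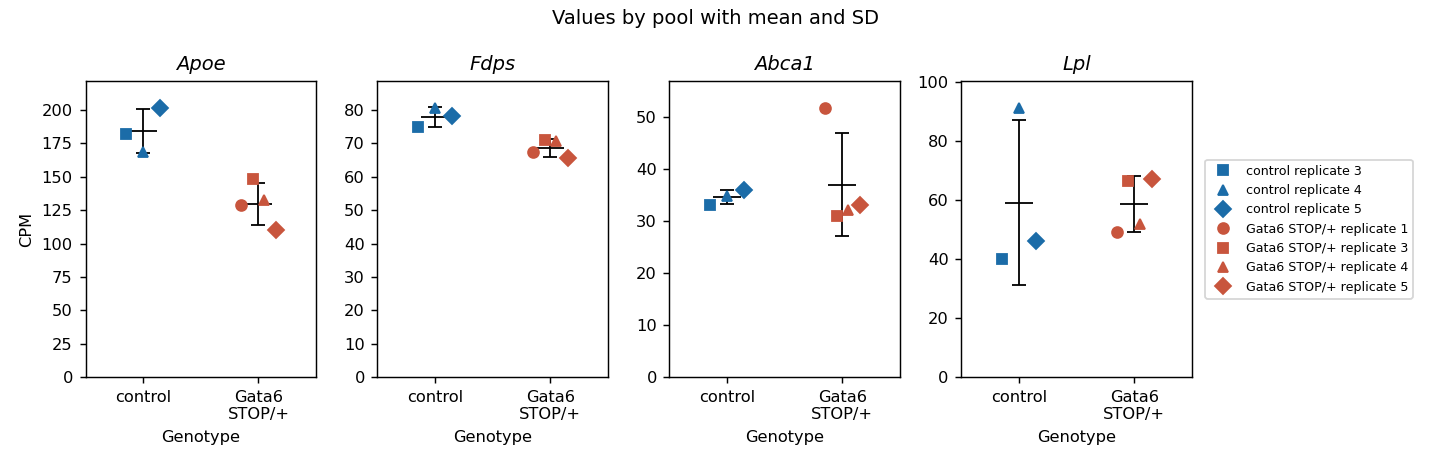
CPM of Apoe, Fdps, Abca1 and Lpl in each pool (symbols by replicate number) by genotype, with the mean and SD of each group in black and the y axes starting at 0. Apoe and Fdps separate by genotype, Gata6STOP/+ replicate 1 stands above the rest in Abca1 and control replicate 4 above the rest in Lpl.

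Apoe is abundant in macrophages and in glia, so the markers of both are given beside it. Of 10 macrophage markers, 6 were lower and 4 higher in Gata6STOP/+ pools, none passed an unadjusted p of 0.05, and their sum was 65.4 to 93.0 CPM in control and 49.1 to 117 CPM in Gata6STOP/+ pools. The complement genes C1qa, C1qb and C1qc summed to 24.7, 23.7 and 40.2 CPM in control replicates 3, 4 and 5 and to 24.2, 45.9, 21.2 and 17.0 CPM in Gata6STOP/+ replicates 1, 3, 4 and 5. Within each genotype the pool highest in C1q was also highest in Apoe. Across genotypes the order differed, since Gata6STOP/+ replicate 3 was highest of all pools in C1q and below every control pool in Apoe (148.2 CPM). Gata6STOP/+ replicates 1 and 4 were in opposite order, with C1q at 24.2 and 21.2 CPM and Apoe at 128.8 and 132.3 CPM. Gata6STOP/+ replicate 5, the lowest pool in 9 of 10 macrophage markers, was also the lowest in Apoe. With the mean log2 level of the macrophage markers as a covariate, the Apoe log2 fold change was -0.48 (limma adjusted p = 0.154). Of 5 listed neural crest and glial markers, 3 were lower, and their sum was 81.8 to 115 CPM in control and 68.5 to 80.7 CPM in Gata6STOP/+ pools. Most of that sum was Erbb3 (58.0 to 104 CPM), while Sox10 was at 2.35 to 5.32 CPM and Foxd3 and Fabp7 were not listed. The part of macrophages, neural crest and glia in the Apoe difference was not tested.

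Export of cholesterol to lipoproteins runs through Abca1 and Abcg1, both targets of the sterol-sensing LXR receptors. Abca1 (chr4:53030787-53159895, minus strand) measured 33.1, 34.8 and 35.9 CPM in the control pools (replicates 3, 4 and 5), beside 51.7, 30.9, 32.1 and 33.1 CPM in the Gata6STOP/+ pools (replicates 1, 3, 4 and 5). Replicate 1 stood above every other pool, while the other 3 Gata6STOP/+ pools were at or below the controls. The Abca1 means were 34.6 ± 1.42 CPM (n = 3) and 36.9 ± 9.85 CPM (n = 4), with a log2 fold change of 0.062 ± 0.15 (SE; limma adjusted p = 0.943) that turned to -0.11 without Gata6STOP/+ replicate 1. Abcg1 was also highest in that pool, at 19.5 CPM, against 15.3 to 17.0 CPM in the other 6.

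Lpl releases fatty acids from lipoproteins at the vessel wall (chr8:68880491-68907448, plus strand). Lpl measured 40.1, 91.1 and 46.1 CPM in the control pools (replicates 3, 4 and 5), beside 49.1, 66.5, 51.9 and 67.0 CPM in the Gata6STOP/+ pools (replicates 1, 3, 4 and 5). Control replicate 4 was higher than every other pool, and the other control pools were the lowest of the 7. The Lpl means were 59.1 ± 27.8 CPM (n = 3) and 58.6 ± 9.43 CPM (n = 4), with a log2 fold change of 0.070 ± 0.23 (SE; limma adjusted p = 0.960). The Lpl log2 fold change was 0.63 with the Y-linked covariate (limma adjusted p = 0.411) and 0.43 without control replicate 4 (limma adjusted p = 0.392). The same pool was highest in 2 of 8 cardiomyocyte markers (Nppa and Tnni1) and in 3 of 7 endothelial markers (Cdh5, Kdr and Emcn), and lowest in 4 of 4 Y-linked genes. The endothelial markers summed to 688 to 882 CPM in control and 746 to 912 CPM in Gata6STOP/+ pools, and the cardiomyocyte markers to 16054 to 17889 and 13106 to 18302 CPM. The part of these cell types in the Lpl value was not tested.

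The receptors overlapped between genotypes. Vldlr binds particles that carry apolipoprotein E (chr19:27216484-27254231, plus strand). Vldlr measured 76.6, 75.3 and 86.5 CPM in the control pools (replicates 3, 4 and 5), beside 77.9, 80.1, 80.8 and 84.1 CPM in the Gata6STOP/+ pools (replicates 1, 3, 4 and 5). The control pools spanned the Gata6STOP/+ pools. The Vldlr means were 79.5 ± 6.14 CPM (n = 3) and 80.7 ± 2.56 CPM (n = 4), with a log2 fold change of 0.025 ± 0.065 (SE; limma adjusted p = 0.946). Lrp1, a large endocytic receptor, was at 287 to 382 CPM in control and 266 to 404 CPM in Gata6STOP/+ pools. Scarb1, which takes up cholesterol ester from high-density lipoprotein, was at 65.9 to 80.9 CPM in control, at 60.4 CPM in Gata6STOP/+ replicate 1 and at 73.7 to 75.3 CPM in the other Gata6STOP/+ pools.

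Npc1 and Npc2 pass cholesterol out of the lysosome. Npc1 (chr18:12189692-12236400, minus strand) measured 69.3, 63.7 and 60.03 CPM in the control pools (replicates 3, 4 and 5), beside 70.3, 57.8, 63.2 and 62.4 CPM in the Gata6STOP/+ pools (replicates 1, 3, 4 and 5). The highest and the lowest pool of Npc1 were both Gata6STOP/+. The Npc1 means were 64.4 ± 4.69 CPM (n = 3) and 63.4 ± 5.15 CPM (n = 4), with a log2 fold change of -0.021 ± 0.078 (SE; limma adjusted p = 0.963). Npc2 was at 149.0 to 155.6 CPM in control and 152.3 to 161.3 CPM in Gata6STOP/+ pools. Stard4, which moves sterol through the cytosol, was at 51.7 to 57.6 and 56.6 to 59.8 CPM, with a log2 fold change of 0.096 (limma adjusted p = 0.741). Pltp, a phospholipid transfer protein, was at 9.35 to 10.3 and 9.65 to 11.1 CPM, and 19.3% of its exon bases lie opposite Ctsa.

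Of 48 other genes of sterol and lipid handling, 43 were listed, and none passed an adjusted p of 0.05 by limma. Their groups did not overlap for 4 genes (9.30%, beside 8.47% of all genes). Lrp2 and Lipg were higher and Fads2 and Lmf1 lower in Gata6STOP/+ OFTs. Lrp2, an endocytic receptor also known as megalin, was at 8.49, 14.4 and 13.8 CPM in control and 23.0, 14.9, 14.8 and 19.1 CPM in Gata6STOP/+ pools. The lowest Gata6STOP/+ pool of Lrp2 was less than 1 CPM above the highest control pool, and its log2 fold change of 0.55 ± 0.20 (SE) had an adjusted p of 0.505 (limma). Lipg, endothelial lipase, was at 2.66 to 4.12 CPM in control and 4.24 to 5.29 CPM in Gata6STOP/+ pools (log2 fold change 0.39). Lmf1, which matures lipases, was at 24.6 to 27.9 and 22.4 to 24.4 CPM, and the desaturase Fads2 at 105 ± 2.09 CPM (n = 3) and 102 ± 1.76 CPM (n = 4), a log2 fold change of -0.049. The 11 genes of fatty acid synthesis had a median log2 fold change of -0.029, and the summed level of all 11 was 1778 ± 46.9 CPM (n = 3) in control and 1775 ± 82.3 CPM (n = 4) in Gata6STOP/+ pools.

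Promoter letters were read to see what these genes share beyond their function. RefSeq promoter windows (GRCm38.p6, from 250 bases before to 50 after a start) were matched by symbol for 27 of the 35 genes. The letters CCAAT, bound by NF-Y, a partner of SREBP, occurred on either strand in the windows of 22 of these genes (81.5%), among them 15 of 16 synthesis enzymes, beside 41.1% of all 27025 genes with a window and 43.1% of the 10852 that are listed here. Windows of genes with several starts were pooled. The classic sterol element, searched as TCACNCCAC, occurred in Hmgcs1 alone of the 27 (1.44% of all genes). The letters GATA with A or T before and A or G after them, on either strand, occurred in 7 of 27 (25.9%), beside 33.0% of all genes and 22.0% of the listed ones. Stretches directly before the start are given for Hmgcs1, which holds both letter groups, for Mvk and Mvd, which hold several CCAAT, and for Apoe, whose stretch at its annotated start holds none of the letters searched, while another Apoe start in the table has AGATAG within its window, which puts Apoe among the 7 genes with GATA letters. Capitals mark CCAAT or its reverse ATTGG and, in Hmgcs1, the TCACNCCAC match. The stretches lie at chr13:119690191-119690350 (plus strand, Hmgcs1), chr5:114444109-114444268 (plus, Mvk), chr8:122443423-122443582 (minus, Mvd) and chr7:19699189-19699348 (minus, Apoe), and hold no annotated exon base.
Hmgcs1: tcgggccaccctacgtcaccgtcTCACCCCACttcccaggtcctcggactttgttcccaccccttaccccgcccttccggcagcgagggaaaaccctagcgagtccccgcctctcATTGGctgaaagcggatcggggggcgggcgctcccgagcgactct
Mvk: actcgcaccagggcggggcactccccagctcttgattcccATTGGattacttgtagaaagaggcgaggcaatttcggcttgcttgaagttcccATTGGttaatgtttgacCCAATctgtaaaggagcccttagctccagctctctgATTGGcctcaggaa
Mvd: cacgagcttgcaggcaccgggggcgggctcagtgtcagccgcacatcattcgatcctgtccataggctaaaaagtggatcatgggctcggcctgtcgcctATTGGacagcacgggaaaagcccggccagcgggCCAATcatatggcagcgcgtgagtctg
Apoe: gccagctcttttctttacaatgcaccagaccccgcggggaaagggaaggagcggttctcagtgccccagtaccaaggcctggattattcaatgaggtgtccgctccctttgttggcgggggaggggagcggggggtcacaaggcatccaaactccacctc

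A letter match is a description of these windows and does not show that a factor binds there. The genes with CCAAT in their windows included both ends of the range of synthesis fold changes, Mvd at -0.18 and Sc5d at 0.12. With CCAAT in 15 of the 16 synthesis enzymes that had a window, this cannot show whether the letters go with the fold change. Fdps had no window.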

How the data were processed

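Whole OFTs were pooled and sequenced as poly(A) RNA with a directional kit. Reads were trimmed with Cutadapt and assigned with RSEM to the Ensembl genes of GRCm38. Genes reaching 1 CPM in 3 or more samples were kept by the authors, who deposited TMM-normalized CPM for 7 pools. The strand setting of the counting is not given in the sources used here. Dividing by the value of 1 read recovered whole reads (100% of values within 0.01 read).

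Groups came from the labels. The members and lists were chosen with earlier results of these data known. Genotypes were compared with limma 3.58.1 (trend) on log2(CPM + 0.5) over all 14732 genes with Benjamini-Hochberg adjustment at 0.05, no covariate and R 4.3.3. A fold change on this scale understates that of low genes. Nothing says that pools came from separate litters, so p-values measure the spread between pools. Exact permutation tests used all 35 splits of the 7 pools. Alternatives were constants of 0.1 and 2, a mean of at least 5 CPM, median-of-ratios scaling, a replicate block, a Y-linked covariate, each pool left out, and on the recovered reads edgeR 4.0.16 and DESeq2 1.42.0. A macrophage covariate was added after seeing the data. Tests were checked on simulated data.

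All 35 genes were named. Values in every pool were given for genes whose groups did not overlap or with an unadjusted p under 0.05, and for Hmgcs1, Sqle, Insig1, Srebf1, Srebf2, Abca1, Lpl, Vldlr and Npc1, and, chosen after the values were seen, for Sc5d. From the other lists, genes whose groups did not overlap were named, at most 10. Gene positions, exon lengths and shared 60-base stretches came from GENCODE M21.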

Additional observations from a re-analysis of the deposited data

Results flagged for a closer look

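Within the 4 Gata6STOP/+ pools, the highest or lowest value of each of the 35 genes was tested for distance from the others, and 2 genes had a pool far from the rest. About 1 in 20 such tests is positive by chance. Abca1 was at 51.7 CPM in Gata6STOP/+ replicate 1, against 30.9 to 33.1 CPM in the other 3 pools. Scarb1 was at 60.4 CPM in the same pool, against 73.7 to 75.3 CPM. That pool was also lowest in 8 of 8 cardiomyocyte markers, and the part of this in the 2 values was not tested.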

How the results depend on the processing

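Turns in direction were counted for the 35 genes only, so no share over all genes stands beside them. Of the 35 genes, 16 kept their direction under all 19 alternatives and 19 turned at least once, each with a log2 fold change of at most 0.083 in size. Apoe and Fdps kept theirs (Apoe -0.57 to -0.43 and Fdps -0.21 to -0.16 with a pool left out, and -0.46 and -0.13 with the Y-linked covariate). Apoe passed the threshold in 3 count tests (adjusted p = 0.00122 by edgeR likelihood ratio, 0.00928 with the replicate block, 0.000516 by DESeq2), which made 1 call each among the 35 genes, and not in the other 16 alternatives. Over its 19 alternatives its adjusted p ran from 0.000516 to 0.549.

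Genes called over all genes were 0 by limma and by the edgeR quasi-likelihood test (1177 at an unadjusted p under 0.05), and 1 with a constant of 0.1, 6 with the Y-linked covariate, 14 with the replicate block, 105 by likelihood ratio, 118 by likelihood ratio with the block, 13 by quasi-likelihood with the block, 88 by DESeq2 and 0 to 13 with a pool left out (13 without control replicate 4). With the Y-linked covariate the median log2 fold change was -0.0018 for synthesis, -0.11 for regulators and 0.00019 for transport, and it turned for Pmvk (0.027), Cyp51 (-0.011), Hsd17b7 (0.055), Ebp (0.066), Lrp1 (-0.21) and Abca1 (-0.070). Lpl was at 0.63 with that covariate and turned to -0.021 by quasi-likelihood and to -0.013 by both likelihood ratio and DESeq2.

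The replicate numbers did not pair the pools: deviations of same-numbered pools correlated at -0.27 to -0.017 over 11627 genes, and 0 of 3 control pools correlated best with their own number. With the replicate block, Gata6STOP/+ replicate 1 has no partner and carries no weight. Under the block, log2 fold changes turned for Cyp51 (-0.012 in limma and both edgeR tests), Msmo1 (-0.048, and -0.049 in edgeR), Insig2 (-0.017, and -0.018), Lrp1 (-0.023, and -0.022), Scarb1 (0.015, and 0.014) and Abca1 (-0.11, and -0.11).

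With each pool left out in turn, 18 genes turned in at least 1 of 7 fits, with ranges of -0.16 to 0.0054 for Pmvk, -0.015 to 0.079 for Cyp51, -0.060 to 0.11 for Lbr, -0.048 to 0.038 for Msmo1, -0.077 to 0.036 for Srebf1, -0.027 to 0.043 for Insig2, -0.095 to 0.024 for Scap, -0.013 to 0.087 for Vldlr, -0.14 to 0.015 for Scarb1, -0.072 to 0.033 for Npc1, -0.16 to 0.43 for Lpl, -0.18 to 0.0066 for Lss, -0.066 to 0.021 for Hsd17b7, -0.045 to 0.097 for Acat2, -0.056 to 0.11 for Idi1, -0.041 to 0.18 for Lrp1, -0.11 to 0.13 for Abca1 and -0.082 to 0.015 for Insig1. The cause of these turns was not tested. With 3 against 4 pools, no exact permutation p can fall below 0.0571.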
